A study of Mus musculus with 32 samples.

Results

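The comparison described here is that of iCre with LacZ in cultured mouse cardiac fibroblasts that had been treated with transforming growth factor beta (TGFb). In both vector groups the cells were C57BL/6J and Pkm2fl/fl, that is, with Pkm floxed. They were grown in medium with 10% serum and 20 ng/ml bFGF, used at passage 1, transduced with LacZ as the control or with the recombinase iCre, and then held without serum with TGFb at 10 ng/ml for 24 h before poly(A) RNA was taken. The 8 libraries, 4 per vector with replicate numbers 1 to 4, were chosen by their titles from 32 in all. The other 24 are 8 libraries each without a stimulus (SS in the titles), with bFGF and with IL-1b. The titled purpose of the study is a switch of the Pkm product from PKM2 to PKM1. The labels do not give the age or sex of the animals, what a replicate number stands for, or whether cells were pooled, and iCre is delivered to cells in culture, so the share of recombined cells in a library is unknown.

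Pyruvate kinase converts phosphoenolpyruvate to pyruvate at the end of glycolysis. The Pkm transcript carries either of a pair of mutually exclusive exons, which gives PKM1, common in adult heart and muscle, or PKM2, common in proliferating cells and allosterically regulated. TGFb acts through Smad transcription factors and turns cardiac fibroblasts toward a contractile, matrix-producing state. Cholesterol is made from acetyl-CoA through the mevalonate pathway, whose enzymes are induced together by the transcription factor SREBP2 when sterols in the endoplasmic reticulum are low.

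The treatment tags of the 4 LacZ libraries name IL-1b rather than TGFb, and the protocol text speaks of TAK1fl/fl cells, so the stimulus was checked with genes. Levels are CPM, the count relative to a library size scaled with TMM factors, so a CPM is comparable between libraries for a gene but not between genes of unlike length. The IL-1b-inducible gene Nos2, for nitric oxide synthase, was at 0.204 to 0.547 CPM in the 8 libraries and at 174 to 349 CPM in the 8 titled IL-1b. Pmepa1, which TGFb induces and which dampens Smad activity, was at 946 to 1454 CPM in the 8 and at 165 to 273 CPM in SS. Both genes go with the titles for the stimulus, and the vector rests on the titles alone. Total counts ran from 22072005 to 32168835, and the iCre library was the deeper of each pair (1.16 to 1.22 times). Mitochondrial transcripts held 0.41 to 0.73% of the counts. Summed fibroblast markers stood at 38714 to 57911 CPM in the 8 libraries. Markers of myeloid cells were present as well, with Lyz2 at 17.2 to 289 CPM and Csf1r of macrophages at 4.20 to 60.4 CPM. Of 12 cardiomyocyte markers 10 were under 1 CPM in all 8 libraries, with Pln at 0, while Tnnt2 stood at 6.40 to 35.1 CPM. Cd3e of T cells was at 0 in all 8. Summed mural markers stood at 732 to 1943 CPM, with Pdgfrb at 471 to 736 CPM and Rgs5 at 5.56 to 794 CPM. Summed endothelial markers stood at 223 to 735 CPM, mostly Eng, with Pecam1 at 0.0421 to 0.605 CPM.

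The floxed gene itself was lower in the iCre library of every pair. Pkm (ENSMUSG00000032294, chr9:59656368-59679375, GRCm38) stood at 1364, 1548, 1492 and 1748 CPM in LacZ replicates 1 to 4. In iCre it stood at 994, 1126, 952 and 1355 CPM in the same order. The highest iCre library lay just under the lowest LacZ library, so the groups did not overlap. The fit gave a log2 fold change of -0.48 ± 0.08 over the 4 pairs, a fold of 0.716 (edgeR quasi-likelihood, adjusted p = 0.0159). This SE, like later ones of the same fit, uses a spread pooled over all 16 pairs of the 4 conditions. In the 8 libraries alone the SE was 0.11. Flipping the signs of the 4 pair differences in every way gave an exact two-sided p = 0.125, the smallest that 4 pairs allow. The adjusted p was 0.0972 without replicate 3, the pair with the largest difference, and 0.493 when the 8 libraries were fitted alone with the same pairs. In these bulk libraries, fewer cells with a transcript and less transcript per cell cannot be told apart.

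The alternative exons of Pkm are shown because they are what the recombination is meant to exchange and what a count per gene does not resolve. Both are 167 bases long and are the exon number 9 of 11 in their transcripts, and they differ at 64 positions (61.7% identity). The upstream exon, at chr9:59675029-59675195 on the plus strand in the GENCODE M21 annotation of GRCm38, is in transcript Pkm-202 and is the PKM1 type. The downstream exon, at chr9:59675568-59675734, is in Pkm-201 and is the PKM2 type. Capitals mark the positions at which the sequences differ.
Pkm-202 exon: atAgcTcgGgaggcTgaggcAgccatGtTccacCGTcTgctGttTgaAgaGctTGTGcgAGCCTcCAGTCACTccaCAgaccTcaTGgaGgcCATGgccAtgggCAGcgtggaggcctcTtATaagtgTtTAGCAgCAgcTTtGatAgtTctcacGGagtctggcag
Pkm-201 exon: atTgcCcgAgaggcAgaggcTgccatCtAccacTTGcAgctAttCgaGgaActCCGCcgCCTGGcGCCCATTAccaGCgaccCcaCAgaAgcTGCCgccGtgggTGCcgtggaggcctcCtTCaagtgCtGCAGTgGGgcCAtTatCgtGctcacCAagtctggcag
With counts per gene, the lower Pkm value covers both forms together. The factors that choose between the exons gave small fitted values. Ptbp1 stood at -0.04, Hnrnpa1 at -0.16, Hnrnpa2b1 at -0.10 and Srsf3 at -0.08 on the log2 scale, and none of the 4 passed (adjusted p = 0.557 to 0.906). All 4 were lower in iCre in pairs 3 and 4 and higher in pair 1, with Ptbp1 from 0.22 in pair 2 to -0.42 in pair 4.

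Over all 16760 genes tested, 46 passed an adjusted p of 0.05 in either direction (0.274%). Of these 28 rose in iCre (0.167%) and 18 fell (0.107%), while 1820 genes (10.9%) had an unadjusted p under 0.05. The changes had the same sign in 4 of 4 pairs for all 18 genes that fell and for 25 of the 28 that rose, against 12.3% of all genes tested. The LacZ and iCre groups did not overlap for 11 of the 46, against 1.71% of all genes. The 46 were called on these same pair differences, so both shares are raised by the choice and do not back the calls. Those that fell were 0.57 to 0.764 times their LacZ level, and the 28 that rose ranged from 1.26-fold to 12.6-fold. The calls rested on the pairing. Fitted without the pairs, 0 genes passed (526 at an unadjusted p under 0.05), and the 8 libraries fitted alone with pairs gave 0 as well (737 at an unadjusted p under 0.05), with the sign of all 42 called genes that could be tested there kept.

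Genes of cholesterol synthesis made up 10 of the 18 that fell. All 20 members of the list were lower in iCre, 10 fell past the threshold over all genes, 0 rose and 18 had an unadjusted p under 0.05. Their median log2 fold change was -0.56, against 0.0023 over all genes tested. Medians within pairs 1 to 4 were -0.72, -0.53, -0.63 and -0.33, and 18 of the 20 were lower in 4 of 4 pairs. The count of 10 was 4, 3, 2 and 8 without replicates 1 to 4 and 16 in DESeq2, while the median stayed between -0.66 and -0.53 over the replicates left out. The list was known from earlier results of these data to be lower in iCre, so its direction is not independent evidence.

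**Figure D1:**
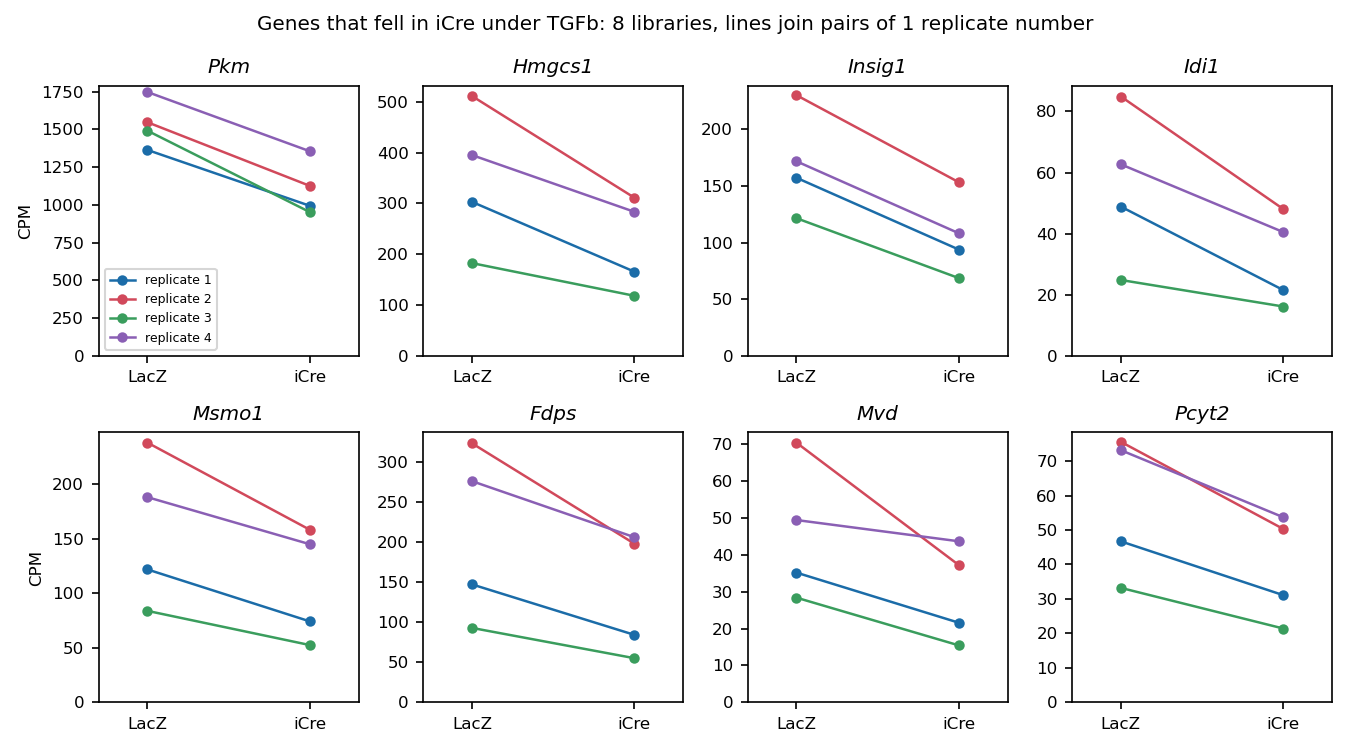
Levels of 8 genes that fell in iCre under TGFb, in CPM (y axis, from 0) for LacZ and iCre (x axis). Each point is 1 library and each line joins the pair of 1 replicate number. Every line slopes down, from 1364 to 994 CPM for Pkm in replicate 1 for example, while replicate 3 stays lowest for the cholesterol genes in both vectors.

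At the head of the pathway, Acat2 joins acetyl-CoA units and Hmgcs1 adds a further one on the way to mevalonate. Hmgcs1 (chr13:119690379-119708260) stood at 303, 512, 183 and 395 CPM in LacZ and at 166, 311, 118 and 284 CPM in iCre. The groups overlapped, because replicate 3 was low and replicate 2 high with both vectors, but each iCre library lay below its partner (-0.67 ± 0.10, adjusted p = 0.00762). The number 3 library was the lowest of 4 for 20 of 20 members of the list in LacZ and again for 20 of 20 in iCre, while the drop was seen within each number. Acat2 fell by 0.58 on the log2 scale (adjusted p = 0.0414), from a mean of 56.3 ± 26.4 to 40.0 ± 23.8 CPM (SD, n = 4).

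Mevalonate is then phosphorylated by Mvk and Pmvk, decarboxylated by Mvd to the isoprenoid unit, isomerised by Idi1 and joined by Fdps. Idi1 (chr13:8885501-8892451) stood at 48.8, 84.9, 24.8 and 62.7 CPM in LacZ and at 21.5, 48.0, 16.2 and 40.5 CPM in iCre, and had the largest drop of the 18 genes that fell (-0.81 ± 0.15, adjusted p = 0.0321). Mvd stood at 35.2, 70.3, 28.4 and 49.4 CPM in LacZ and at 21.6, 37.2, 15.4 and 43.6 CPM in iCre. Its replicate 4 pair moved least of the 4 (-0.18 within the pair, against -0.70 to -0.92 in the others). Fdps fell by 0.67 and Pmvk by 0.59 (adjusted p = 0.0346 each), and Mvk stood at -0.47 without passing (adjusted p = 0.102).

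The sterol part of the pathway begins with squalene synthase (Fdft1) and ends with cholesterol. Msmo1, which removes methyl groups from lanosterol products, stood at 122, 238, 83.8 and 188 CPM in LacZ and at 74.2, 158, 52.5 and 145 CPM in iCre (-0.59 ± 0.08, adjusted p = 0.00498). Lanosterol synthase, Lss, fell by 0.55 (adjusted p = 0.0463) and the desaturase Sc5d by 0.39 (adjusted p = 0.0489). Below the threshold of the test were Cyp51 (-0.63, adjusted p = 0.0891), Nsdhl (-0.53, adjusted p = 0.0945) and the epoxidase Sqle (-0.57, adjusted p = 0.0966). Fdft1, Hsd17b7 and Dhcr7 stood between -0.55 and -0.48 with adjusted p from 0.136 to 0.192. The 2 members without an unadjusted p under 0.05 were Ebp (-0.14) and Tm7sf2 (-0.27), and both were higher in iCre in replicate 4.

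**Figure D2:**
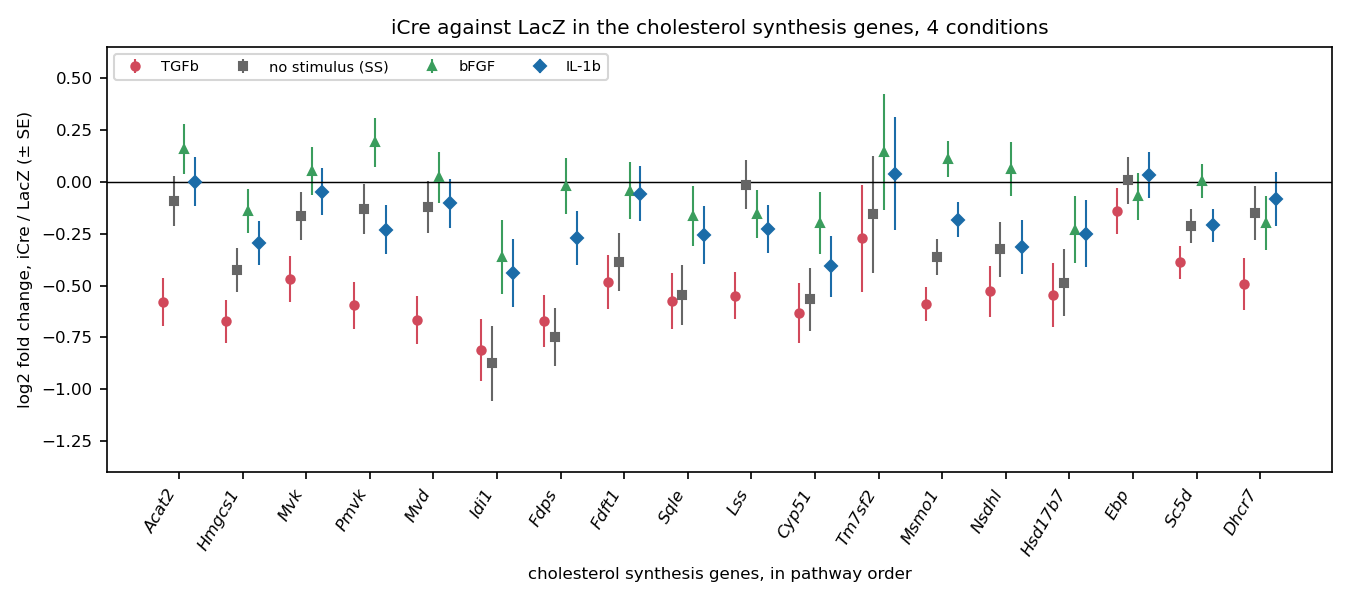
Log2 fold change of iCre against LacZ (y axis, ± SE) for 18 of the 20 cholesterol synthesis genes in pathway order (x axis), under TGFb, SS, bFGF and IL-1b. All 18 TGFb points lie below 0, while the bFGF points lie on both sides (list medians over all 20 are -0.56 and -0.03).

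Sensors and neighbours of the pathway were read next. Insig1 (chr5:28071363-28078662) encodes the protein that holds the SREBP escort in the endoplasmic reticulum when sterols are plentiful, and is itself an SREBP target. It stood at 157, 230, 122 and 172 CPM in LacZ and at 93.9, 153, 68.7 and 108 CPM in iCre, a drop of similar size in each pair (-0.70 ± 0.08, adjusted p = 0.00111, the smallest of the genes that fell). Aacs, which activates acetoacetate for lipid synthesis in the cytosol, fell by 0.39 (adjusted p = 0.0341), from a mean of 140 ± 32.4 to 106 ± 21.3 CPM. Pcyt2, of phosphatidylethanolamine synthesis, stood at 46.7, 75.6, 33.2 and 73.1 CPM in LacZ and at 31.1, 50.3, 21.4 and 53.7 CPM in iCre (-0.56 ± 0.09, adjusted p = 0.0131).

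Uptake, efflux and fatty acid genes gave fewer calls. In the list of cholesterol uptake and sterol sensing 7 of 12 were lower, 1 fell (Insig1) and 0 rose. The sterol carrier Stard4 (-0.48, adjusted p = 0.215) and Srebf2 itself, which encodes SREBP2 (-0.17, adjusted p = 0.59), did not pass. In cholesterol efflux 3 of 5 were higher and 0 passed, with the transporters Abca1 at 0.56 (adjusted p = 0.223) and Abcg1 at 0.33 (adjusted p = 0.294) and the sterol-sensing receptor gene Nr1h3 at 0.44 (adjusted p = 0.389). Of 11 fatty acid synthesis and desaturation genes 8 were lower and 0 passed, with Acss2 at -0.45 (adjusted p = 0.182) and Fads2 at -0.28 (adjusted p = 0.26).

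The promoters of 3 enzymes that fell are shown because the cholesterol genes moved together and SREBP2 acts through such windows. Whether SREBP2 had a part in the drop was not tested. Each window shown is the 250 bases before the RefSeq start site (GRCm38.p6), written 5′ to 3′ on the gene's own strand. The windows were searched on both strands for TCACCCCAC, a classical sterol regulatory element, and for CCAAT, the box bound by NF-Y, 2 motifs chosen after the results were seen that did not overlap in these windows. Capitals mark the matches, with ATTGG the CCAAT box read from the other strand.
Hmgcs1, chr13:119690101-119690350, plus strand: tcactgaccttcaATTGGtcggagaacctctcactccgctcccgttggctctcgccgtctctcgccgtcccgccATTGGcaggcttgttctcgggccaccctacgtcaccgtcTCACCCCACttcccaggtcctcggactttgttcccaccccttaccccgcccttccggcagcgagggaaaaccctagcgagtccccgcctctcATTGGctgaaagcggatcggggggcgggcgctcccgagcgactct
Mvd, chr8:122443423-122443672, minus strand: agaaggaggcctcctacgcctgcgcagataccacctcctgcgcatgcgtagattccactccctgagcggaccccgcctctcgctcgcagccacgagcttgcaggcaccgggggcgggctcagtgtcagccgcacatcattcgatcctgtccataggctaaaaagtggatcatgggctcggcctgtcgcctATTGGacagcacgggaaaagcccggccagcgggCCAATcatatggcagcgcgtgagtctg
Sc5d, chr9:42264301-42264550, minus strand: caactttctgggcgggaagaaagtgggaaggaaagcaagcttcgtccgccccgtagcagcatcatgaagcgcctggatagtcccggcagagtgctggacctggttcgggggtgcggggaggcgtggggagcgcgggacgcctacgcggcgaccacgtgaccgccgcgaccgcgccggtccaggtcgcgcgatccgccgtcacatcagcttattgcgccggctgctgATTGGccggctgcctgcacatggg
Counted over 250 bases before to 50 after the start, 15 of the 20 list members had a window, and 14 of these (93.3%) held CCAAT, against 41.1% of 27025 genes with a window. TCACCCCAC was in 1 of the 15 (Hmgcs1, 6.67%) and in 0.614% of all genes, and Pkm held it as well. Of 15 genes that fell and had a window, 11 (73.3%) held CCAAT, and of 19 that rose and had a window, 9 (47.4%). The 27025 genes were not limited to those tested, so their share is not that of genes expressed in these cells. A match describes the letters in the window and does not show that a factor is bound there.

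Apart from Pkm and the sterol and lipid genes, 4 genes fell. Nr2f6, an orphan nuclear receptor gene, stood at 54.8, 61.3, 52.1 and 48.4 CPM in LacZ and at 44.5, 38.9, 45.8 and 31.4 CPM in iCre, with no overlap between the groups (-0.44 ± 0.09, adjusted p = 0.042). Pabpn1, a nuclear poly(A)-binding protein gene, stood at 60.3, 76.6, 61.7 and 62.9 CPM against 52.1, 48.7, 45.8 and 51.1 CPM, also without overlap (-0.40 ± 0.08, adjusted p = 0.0418). Hspa2, of the HSP70 chaperones, fell by 0.48 (adjusted p = 0.0308) and Abcb10, a mitochondrial transporter gene, by 0.39 (adjusted p = 0.0346).

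Among genes of glucose and oxygen metabolism, 2 rose. Pdk1, the kinase that shuts pyruvate out of the mitochondrial dehydrogenase, stood at 26.9, 29.3, 25.8 and 49.8 CPM in LacZ and at 38.3, 60.04, 32.6 and 64.3 CPM in iCre. It was higher in each pair although LacZ replicate 4 exceeded iCre replicates 1 and 3 (0.56 ± 0.11, adjusted p = 0.042). Bnip3, a mitophagy receptor gene induced by hypoxia-inducible factor (HIF), stood at 40.8, 50.4, 40.2 and 94.7 CPM in LacZ and at 59.4, 92.3, 55.7 and 114 CPM in iCre (0.54 ± 0.09, adjusted p = 0.0131). The HIF target list outside glycolysis had 14 of 16 higher, 1 risen (Bnip3) and 0 fallen, with a median of 0.21, and its pair medians were 0.23, 0.37, 0.10 and -0.13, so replicate 4 went the other way.

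Glycolysis genes were higher by less. Of 22 members 21 were higher in iCre, 0 passed and 6 had an unadjusted p under 0.05, and the median was 0.14. Tpi1, triose phosphate isomerase, stood at 331, 387, 356 and 516 CPM in LacZ and at 441, 493, 392 and 538 CPM in iCre (0.24, adjusted p = 0.219), and Eno1, enolase, at 0.25 (adjusted p = 0.274). All 22 members were higher in pair 2 and 18 in pair 1, but 10 in pair 3 and 12 in pair 4, with pair medians of 0.24, 0.33, -0.02 and 0.03. In SS, bFGF and IL-1b 20, 21 and 21 of the 22 were higher, with medians of 0.14, 0.18 and 0.16. Of 26 genes of pyruvate entry and the TCA cycle, 15 were higher and 1 rose (Pdk1). The pentose phosphate (6 of 7 lower), serine and one-carbon (10 of 15 lower) and nuclear oxidative phosphorylation lists (21 of 25 lower) had 0 called, with medians of -0.11, -0.11 and -0.06. The direction of the oxidative phosphorylation list did not repeat, with 21, 1, 4 and 17 of the 25 higher within pairs 1 to 4 and 16, 21 and 21 higher in SS, bFGF and IL-1b.

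Of the 28 genes that rose, 4 were in any of the lists (Pdk1, Bnip3, Mmp12 and Ccl7), each in a different one. Xdh, xanthine dehydrogenase of purine breakdown, stood at 30.4, 27.4, 25.4 and 39.3 CPM in LacZ and at 40.9, 54.3, 48.1 and 73.6 CPM in iCre, so that the lowest iCre library lay above the highest LacZ library (0.81 ± 0.12, adjusted p = 0.00762). Sirpa, the receptor for the CD47 signal and a gene named here after its values were seen, stood at 36.7, 26.2, 45.1 and 26.6 CPM against 44.7, 41.2, 65.1 and 34.6 CPM (0.46 ± 0.07, adjusted p = 0.00675). It was the only gene that rose to keep its call without each replicate in turn, along with Insig1, Hmgcs1 and Msmo1 among the genes that fell.

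Receptor and signaling genes that rose are given next. Ptgir, the prostacyclin receptor gene, stood at 2.24, 2.12, 1.77 and 2.19 CPM in LacZ and at 2.88, 3.96, 2.67 and 4.20 CPM in iCre, without overlap (0.71 ± 0.12, adjusted p = 0.0151). Prkar2b, a regulatory subunit of protein kinase A, stood at 5.09, 4.04, 5.18 and 6.05 CPM against 7.32, 7.69, 10.2 and 12.6 CPM, also without overlap (0.88 ± 0.14, adjusted p = 0.00784). Rgs2, which shortens signaling by G proteins, stood at 1.02, 0.837, 1.81 and 1.01 CPM in LacZ and at 2.12, 1.38, 3.99 and 7.83 CPM in iCre (1.58 ± 0.30, adjusted p = 0.0386). The small GTPase genes Gem (1.17, adjusted p = 0.0412) and Rasl11a (0.92, adjusted p = 0.00675) rose as well. Sncg, gamma-synuclein, stood at 3.15, 2.41, 2.82 and 2.10 CPM against 4.95, 4.09, 7.83 and 5.35 CPM, without overlap (1.07 ± 0.19, adjusted p = 0.0178).

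Inflammatory and protease genes that rose were at low levels. Ccl7, a monocyte chemokine, stood at 8.39, 9.50, 7.32 and 10.2 CPM in LacZ and at 13.5, 12.4, 12.7 and 17.9 CPM in iCre, without overlap (0.67 ± 0.11, adjusted p = 0.00784), and was the 1 member called of 29 in the list of NFkB targets, cytokines and chemokines. Il1rn, the antagonist of the IL-1 receptor, stood at 0.458, 0.985, 0.842 and 5.34 CPM against 0.889, 1.69, 1.92 and 28.6 CPM (1.63 ± 0.32, adjusted p = 0.0412). Cfb, complement factor B, rose from 1, 4, 3 and 12 reads in LacZ to 14, 13, 12 and 69 reads in iCre (2.08 ± 0.34 on the log2 scale, adjusted p = 0.0131). Mmp12, macrophage elastase (chr9:7344381-7369499), had 3, 1, 20 and 3 reads in LacZ and 18, 5, 111 and 17 reads in iCre, a fold of 4.59 (2.20 ± 0.33, adjusted p = 0.00675). Its adjusted p was 0.124 without replicate 3, while the log2 fold change stayed between 2.16 and 2.22 whichever replicate was left out.

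Leukocyte markers were read beside these genes. Over 15 markers their summed level was 212, 103, 402 and 44.7 CPM in LacZ and 254, 75.9, 569 and 39.5 CPM in iCre, higher in iCre in pairs 1 and 3 and lower in pairs 2 and 4. Of the 13 tested 8 were higher, 0 passed, and the median was 0.10 (0.24, -0.43, 0.60 and -0.25 within pairs). Ptprc was at 0.541 to 9.40 CPM and Lyz2 at 17.2 to 289 CPM. Mmp12 was highest in replicate 3, as were the markers, and Cfb and Il1rn were highest in replicate 4, where the markers were lowest. In pairs 2 and 4, where the summed markers were lower in iCre, Mmp12 had only 1 and 3 reads in LacZ and 5 and 17 in iCre. Summed cardiomyocyte markers were 17.7, 37.0, 9.56 and 19.6 CPM in LacZ and 8.17, 9.87, 8.54 and 10.4 CPM in iCre, mostly Tnnt2, with 10 of 12 markers under 1 CPM in all 8 libraries. Of 8 mural markers tested 7 were higher in iCre and 0 passed, with a median of 0.22 (0.04, 0.70, 0.53 and -0.28 within pairs). The part of such cells in these results was not tested.

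**Figure D3:**
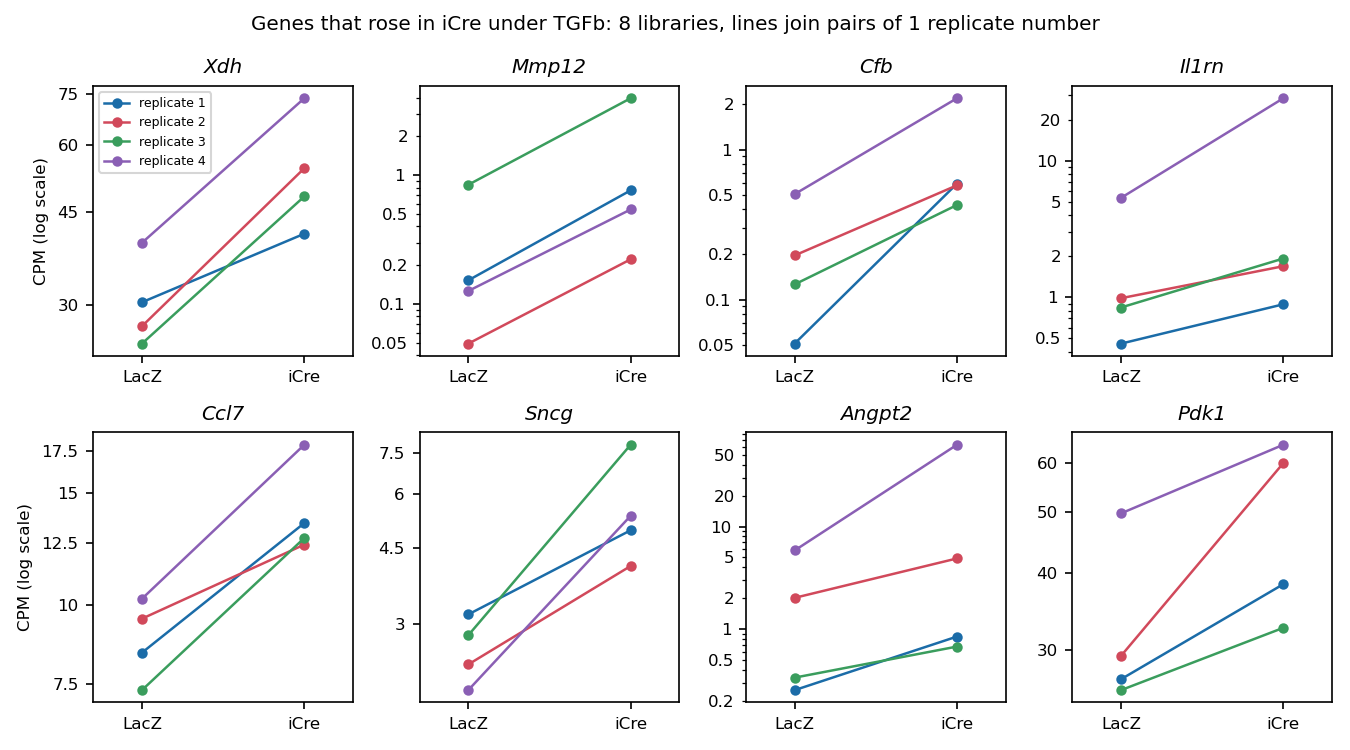
Levels of 8 genes that rose in iCre under TGFb, in CPM on a log axis (y axis) for LacZ and iCre (x axis). Each point is 1 library and each line joins the pair of 1 replicate number. Every line slopes up, while replicate 4 stands far above the others for Il1rn and Angpt2 (28.6 and 62.7 CPM in iCre) and replicate 3 for Mmp12.

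For 5 genes with large fold changes, most reads were in the libraries of replicate 4. Agtr2, the type 2 angiotensin receptor gene, had 0, 5, 4 and 85 reads in LacZ and 0, 1, 19 and 1888 reads in iCre. Its fitted fold of 12.6 (3.66 ± 0.50, adjusted p = 0.00882) came with no read in pair 1 and a lower value in pair 2. Slc14a1, a urea transporter gene, had 0, 0, 2 and 97 reads against 0, 4, 5 and 935 (2.81 ± 0.25, adjusted p = 0.000113). Frmd5 had 1, 4, 4 and 96 reads against 1, 43, 14 and 985, and AW551984 had 0, 0, 3 and 32 against 1, 2, 5 and 473. Angpt2, a ligand of the endothelial Tie2 receptor, had 5, 41, 8 and 139 reads in LacZ and 20, 110, 19 and 1968 in iCre, higher in each pair but by far the most in replicate 4 (2.48 ± 0.44, adjusted p = 0.0349). Without replicate 4 none of the 5 passed (adjusted p = 0.349 to 0.771), and the log2 fold change was 0.84 for Agtr2, 1.13 for AW551984, 1.27 for Angpt2 and 1.81 for Slc14a1. Frmd5 stayed at 2.38, and its pair 2 difference (2.87) was close to that of pair 4 (2.94). The values of Agtr2, Slc14a1 and Frmd5 are given after they were seen, since they lie outside the rule for named genes.

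Replicate 4 weighed on the genes that rose more than on those that fell. It had the largest of the 4 pair differences in 17 of the 28 that rose and the lowest in 2 of the 18 that fell, and its 2 libraries held most of the summed CPM for 11 of the 28. Without it 16 genes passed, 4 risen and 12 fallen, and of the 46 the calls of 4 that rose (Bnip3, Gla, Mmp12 and Sirpa) and 9 that fell were kept. Without replicate 1, 126 genes passed (76 rose, 50 fell). TGFb target genes had pair medians of -0.04, 0.20, -0.25 and -0.51 and ERK feedback genes 0.31, 0.25, -0.23 and -0.66, each lowest in replicate 4.

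The remaining genes that rose are given by symbol and level. Zfp395 (1.00, adjusted p = 0.0463) and Tmtc2 (2.29-fold, adjusted p = 0.0222) rose in 4 of 4 pairs. Gla, the lysosomal alpha-galactosidase, Flcn, folliculin, Akna, Stom and Gnpda1, an enzyme of amino sugar breakdown, rose by 1.26-fold to 1.45-fold at mean LacZ levels of 10.8 to 31.98 CPM. Hoxa7, a homeobox gene, and Ggt1, a gamma-glutamyltransferase gene of glutathione turnover, were under an average log2 CPM of 1. Ggt1 had 3, 3, 5 and 4 reads in LacZ and 26, 7, 13 and 27 in iCre, without overlap (1.91 ± 0.39, adjusted p = 0.0463).

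Genes of the TGFb programme itself gave 0 calls. Of 26 TGFb targets and feedback genes 18 were lower, with a median of -0.17, and the ligand gene Tgfb1 stood at -0.50 (adjusted p = 0.129) and Pmepa1 at -0.26 (adjusted p = 0.383). Contractile and myofibroblast genes had 13 of 21 lower and a median of -0.05. Fibrillar and associated collagens had 12 of 20 lower and a median of -0.04, and matrix glycoproteins and proteoglycans 15 of 29 lower and a median of -0.0031, with Comp, a cartilage matrix protein gene, at -0.97 (adjusted p = 0.0787) and the collagen-binding Fmod at -0.70 (adjusted p = 0.148). With 4 pairs, a list without a call is not shown to be unchanged. Hmox1, heme oxygenase, was higher in 4 of 4 pairs without overlap but missed the threshold (0.46, adjusted p = 0.0542).

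Interferon-stimulated genes showed a like count with another pattern beneath it. In the fit 29 of 30 were higher in iCre, 0 passed, 2 had an unadjusted p under 0.05 and the median was 0.28. Within pairs 1 to 4 the medians were -0.04, -0.38, 1.13 and 0.57, with 14, 4, 30 and 27 of the 30 members higher. Ifit1 in replicate 4 stood at 35.6 CPM in LacZ and 90.4 CPM in iCre, for example, and in replicate 2 at 52.0 and 24.1 CPM, so the count over the fit reflected replicates 3 and 4 and not a change repeated in the 4 pairs.

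**Figure D4:**
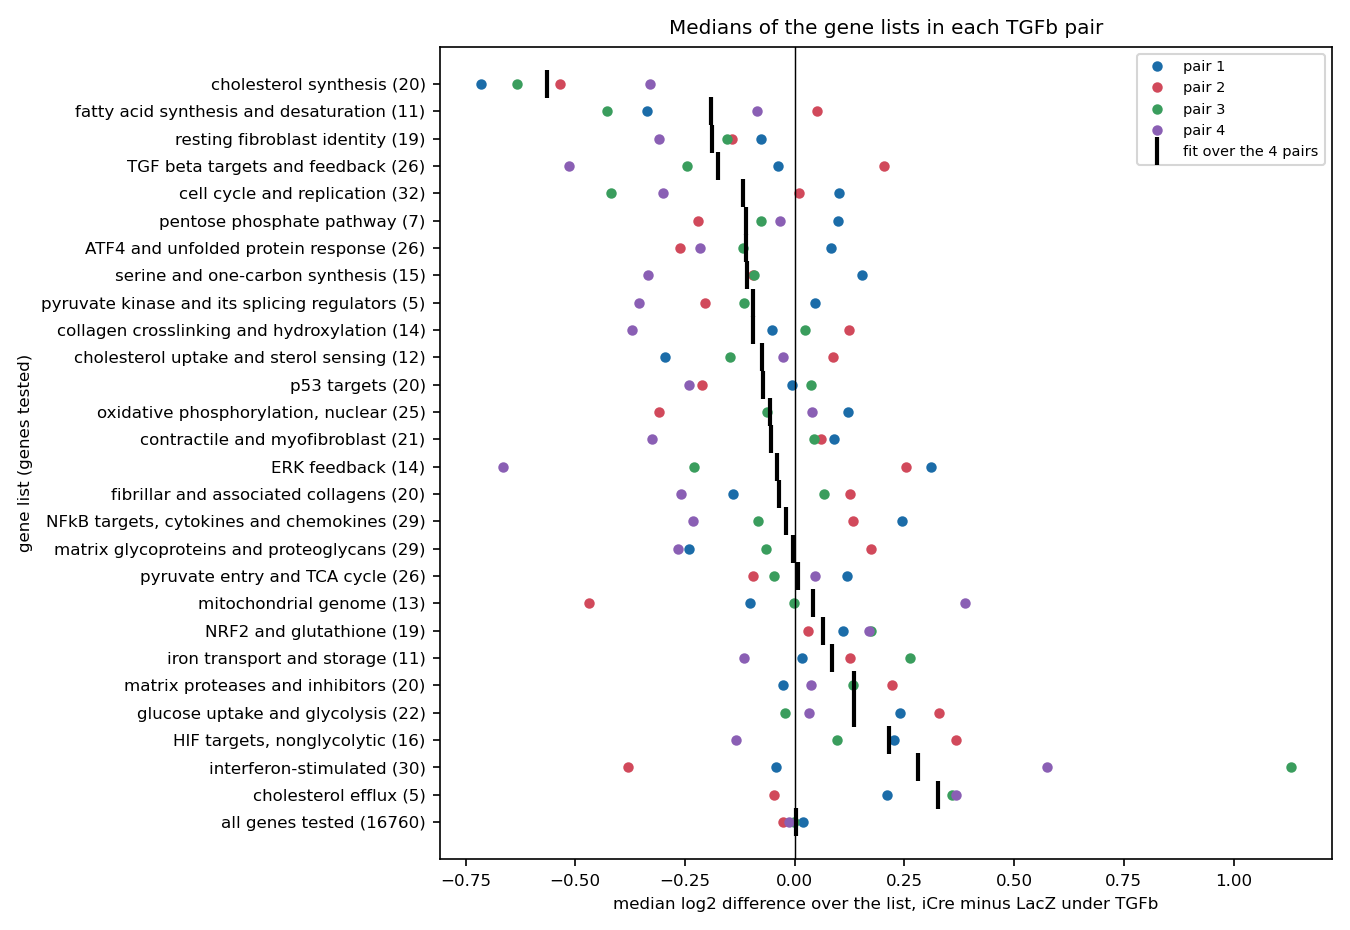
Median log2 difference of iCre minus LacZ under TGFb (x axis) for each gene list (y axis, with the number of genes tested, marker lists left out). Points are the 4 pairs and black bars the medians of the fit. The cholesterol synthesis points all lie to the left of 0, from -0.72 to -0.33, while the interferon points run from -0.38 to 1.13.

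The same contrast was made in the other 24 libraries. In SS 14 genes passed (0.0835%), 8 higher (0.0477%) and 6 lower (0.0358%), with 1324 (7.9%) at an unadjusted p under 0.05. With bFGF 15 passed (0.0895%), 2 higher (0.0119%) and 13 lower (0.0776%), with 1456 (8.69%) at an unadjusted p under 0.05. With IL-1b edgeR called 0, and 966 genes (5.76%) had an unadjusted p under 0.05. Of the 46 genes called under TGFb, 4 were also called in SS (Pkm, Gla, Ccl7 and Slc14a1), 1 with bFGF (Pkm) and 0 with IL-1b. Slc14a1 was uneven in SS too, at 7.79 ± 15.1 CPM in LacZ and 22.9 ± 44.6 CPM in iCre (mean ± SD, n = 4). The SD exceeded the mean in both groups. Its differences within the SS pairs are not given here, so whether the change repeated over replicates is not shown. Pkm itself was at -0.57, -0.48 and -0.52 in SS, bFGF and IL-1b, each ± 0.08, and missed the threshold with IL-1b alone (adjusted p = 0.0176, 0.0284 and 0.0623). The 46 were chosen under TGFb, so that larger values there are built into the choice.

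Cholesterol synthesis genes had medians of -0.56 under TGFb, -0.27 in SS, -0.22 with IL-1b and -0.03 with bFGF, with 20, 19, 17 and 11 of 20 lower and 0 called in the other 3 conditions. Some members were as low without a stimulus, such as Idi1 at -0.88 ± 0.18 and Fdps at -0.75 ± 0.14 in SS. Others were near 0 there, such as Lss at -0.01 ± 0.12 and Acat2 at -0.09 ± 0.12. The difference between conditions was tested in the same fit, and 0 genes passed for TGFb minus SS (763 or 4.55% at an unadjusted p under 0.05, lowest adjusted p 0.0884). TGFb minus bFGF gave 0 (1040 or 6.21%, lowest adjusted p 0.0553) and TGFb minus IL-1b 0 (919 or 5.48%, lowest adjusted p 0.257).

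DESeq2 with the same pairs called 2, 14 and 6 genes for these differences. Against bFGF, the iCre effect under TGFb was lower for Msmo1 (-0.69 ± 0.14, DESeq2 adjusted p = 0.00298), Pmvk (-0.78 ± 0.18, DESeq2 adjusted p = 0.0297) and Aacs (-0.56 ± 0.12, DESeq2 adjusted p = 0.0038). In edgeR the same differences were -0.70 for Msmo1 (adjusted p = 0.096), -0.78 for Pmvk (adjusted p = 0.381) and -0.56 for Aacs (adjusted p = 0.148). With bFGF these genes did not drop, at 0.11 for Msmo1, 0.19 for Pmvk and 0.17 for Aacs in edgeR. Ptgir moved the other way against bFGF (0.95 ± 0.18, DESeq2 adjusted p = 0.00273, and 0.94 in edgeR with adjusted p = 0.0573). For Txnip, a glucose-responsive inhibitor of thioredoxin, the iCre effect under TGFb was higher than in SS by 1.07 ± 0.18 (DESeq2 adjusted p = 3.24e-05). In edgeR 0 genes passed for that difference (lowest adjusted p 0.0884). These were named after their values were seen, and a call in 1 tool of the 2 is not settled.

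Group means without a stimulus are set beside those with TGFb for the called genes. For all 18 that fell, the LacZ mean was higher with TGFb than in SS, and so was the iCre mean. Hmgcs1, for instance, averaged 72.4 CPM in LacZ SS, 348 in LacZ TGFb, 220 in iCre TGFb and 50.5 in iCre SS. For 25 of the 28 that rose the LacZ mean was lower with TGFb than in SS, and Xdh averaged 208, 30.6, 54.2 and 246 CPM in that order. The exceptions among those that rose were Bnip3, Pdk1 and Gla. The LacZ TGFb libraries stand in both comparisons, so the choice of the called genes itself favours this pattern. The same shares over all genes tested were not counted, so no test or conclusion is drawn from it.

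**Figure D5:**
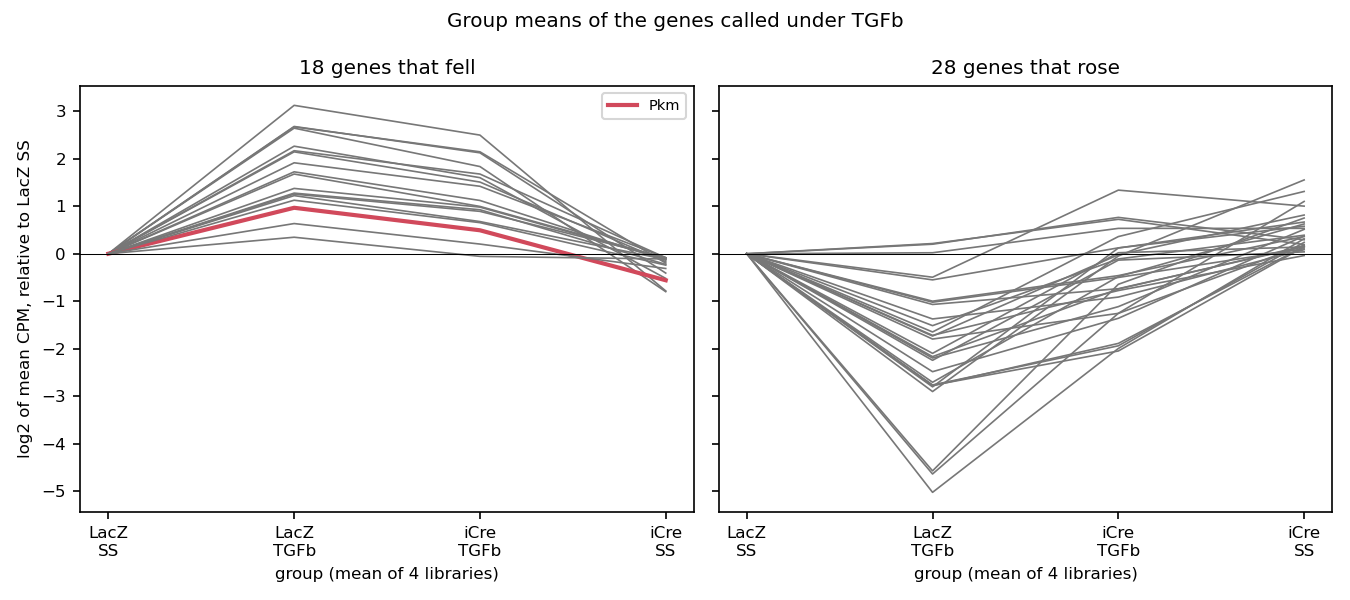
Group means of the 18 genes that fell (left) and the 28 that rose (right) in 4 groups (x axis), as log2 of the mean CPM relative to LacZ SS (y axis). Each line is 1 gene, Pkm in red. Lines on the left rise from LacZ SS to LacZ TGFb and drop to iCre TGFb, as Hmgcs1 does from 348 to 220 CPM, and most on the right do the reverse.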

How the data were processed

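The authors deposited raw gene counts, not normalised, for 32 libraries. HTSeq 0.10.0 for counting, FastQC 0.10.1 and the build mm10/GRCm38 are named per the submitters' processing notes. Aligner, annotation release and strand setting: not given in the sources used here, so reads of overlapping genes on opposite strands may not be told apart. Of 55414 gene IDs 52081 (99.75% of the counts) matched a symbol in GENCODE M21, which gave names and coordinates, and 0 columns were without a sample.

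Groups and replicate numbers come from the titles. The fit used edgeR 4.0.16 (R 4.3.3; limma 3.58.1), TMM scaling, filterByExpr with the groups and a robust quasi-likelihood test, two-sided, adjusted by Benjamini-Hochberg over 16760 genes. All 32 libraries entered, with 1 block for each of 16 pairs of condition and number and 1 iCre term per condition. The 12 residual degrees of freedom come from 16 pairs that share 4 numbers, so they are fewer in effect where a vector difference repeats within a number. Deviations from the group means of same-numbered TGFb libraries correlated at 0.354, 0.159, 0.566 and 0.707, each above the 0.1 set for pairing, although number 1 reached 0.391 with another number. P-values measure the spread between samples that the labels do not tie to separate animals or cultures. No 2 of the 8 libraries were copies (chi-square per degree of freedom at least 13.8). By that measure LacZ numbers 1 and 3 were nearest to their own number among the iCre libraries (13.8 and 16.2). LacZ number 2 was nearer to iCre number 1 (56.9) than to iCre number 2 (66.3). LacZ number 4 was nearer to iCre number 2 (66.6) than to iCre number 4 (76.5), so the match by number is only partly borne out. By the same measure iCre number 4 stood 191 to 281 from the other iCre libraries, which were 14.8 to 75.2 from one another. Pair differences are of log2 CPM with a prior count of 2. The script was tested on simulated data.

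The 34 lists (592 members), the rule for names and the comparison were chosen with earlier results of these data known. Named are Pkm, up to 15 genes per direction by fold that passed 0.05 after adjustment, averaged 1 or more in log2 CPM and kept 1 sign in 4 of 4 pairs, other called genes by symbol, and up to 6 members per list by p. Sirpa, genes read mostly in number 4, genes called by DESeq2 between conditions, label markers, motifs and promoters were picked after their values were seen. Lists are described by counts and medians with no test. Alternatives were other blocks, scalings and filters, DESeq2 1.42.0, and leaving out each number. Plots used matplotlib 3.10.9 (Python 3.11.15). Proteins were not used here, and some list members are counted in their lists but not reported singly.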

Additional observations from a re-analysis of the deposited data

Results flagged for a closer look

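In 22 of 92 groups of 4 libraries (the 46 called genes with each vector) 1 library stood far from the other 3. For independent groups of normally distributed values chance gives about 1 in 20. That rate need not hold for CPM from few reads or for groups that share replicate numbers. Of the 22 libraries 19 were of number 4, 2 of number 3 and 1 of number 2. Number 4 stood apart in both vectors for Tmtc2 (7.19 CPM in LacZ, 21.4 in iCre), Il1rn (5.34 and 28.6), Slc14a1 (4.08 and 29.8), Frmd5 (4.04 and 31.4), AW551984 (1.35 and 15.1) and Agtr2 (3.57 and 60.1). In iCre alone it was high for Gem (21.9 CPM), Hoxa7 (8.73), Cfb (2.20) and Angpt2 (62.7) and low for Hspa2 (24.1) and Abcb10 (25). In LacZ alone it was high for Pdk1 (49.8 CPM). Number 3 was high for Mmp12 with both vectors (0.842 CPM in LacZ, 3.95 in iCre), and number 2 was high for Pabpn1 in LacZ (76.6 CPM).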

How the results depend on the processing

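The count of 46 called genes rested on the pairs and on the spread pooled over conditions. Without the replicate block it was 0, with a replicate block by number only 5, and in the 8 libraries alone 0 with and 0 without the replicate block. Pkm was then -0.47 (adjusted p = 1), -0.46 (0.567), -0.47 (0.493) and -0.46 (1) in these 4 fits, in the same order. DESeq2 with the pair block called 165 (105 rose, 60 fell), of which 44 were among the 46, and 16 of the cholesterol list fell. That count, 10 as reported, was 2 to 8 with 1 replicate left out, 6 with total counts, 9 and 11 with other filters and 0 in the fits without the pair block or on the 8 libraries. Leaving out 1 replicate gave 16 to 126 calls, and Pkm ranged from -0.53 to -0.43 and missed the threshold without replicate 3 (-0.43). Other scalings and filters gave 37 to 63 calls, and without the 8 libraries of number 4 there were 32. All called genes that could be tested kept their sign in these fits.

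For the differences between conditions, DESeq2 called 2 (SS), 14 (bFGF) and 6 (IL-1b) against 0 in edgeR. No filter on low counts gave 6 for bFGF and 3 for IL-1b, total counts gave 1 for bFGF, and leaving out number 4 gave 1 for SS. Leaving out 1 replicate gave 0 to 1 for SS, 0 to 2 for bFGF and 0 to 0 for IL-1b. Among list medians, mesothelial markers went from 0.29 to -0.15 and -0.31 in the 8 libraries alone with and without the block, NRF2 genes ranged from 0.0037 to 0.14 and resting fibroblast genes from -0.31 to -0.11 over the replicates left out. Over the same, interferon genes ranged from 0.03 to 0.62 and TGFb targets from -0.21 to -0.03, and the sign changed for leukocyte markers (-0.14 to 0.29), contractile genes (-0.13 to 0.05), matrix glycoproteins (-0.19 to 0.05), oxidative phosphorylation (-0.12 to 0.05) and ERK feedback (-0.21 to 0.10), among other lists. Genes under about 1 CPM rest on a few reads and their folds are imprecise.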
